A study of Mus musculus with 5 samples.

Results

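The 9 genes described here make, carry or mark the transmitters of amacrine cells, the inhibitory interneurons of the inner retina. They were taken by gene symbol from a table of 16422 genes, and all 9 were found in it. They are Gad1 and Gad2 for GABA, Slc32a1 for GABA and glycine, Slc6a9 for glycine, Chat, Slc18a3 and Slc5a7 for acetylcholine, Th for dopamine, and Calb2, a calcium-binding protein gene used as a marker of amacrine and ganglion cells. The libraries hold nuclear RNA of retinae from mice with the genotype label Aldhl1l-Cre/Ert2+; NuTRAP+, so that tamoxifen-induced Cre acted where the Aldh1l1 promoter is active, and every group carried both alleles and the induction. NuTRAP is a Cre-dependent reporter that lets nuclei be biotinylated and caught on streptavidin beads, a capture known as INTACT. The captured nuclei formed the Positive group (animals 12, 40 and 55; n = 3), named Müller glia by the submitters. The whole-retina nuclei, 10% of each suspension set aside before capture, formed the Input group (animals 40 and 55; n = 2). Each library came from 2 retinae of 1 animal, the Input fraction of animal 12 was not analysed here, and the sources used here give no ages for the animals. The labels give retina as the source, although the text of the extraction protocol opens with brain.

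The transmitter of a neuron is set by a small number of genes. A synthetic enzyme makes it, a vesicular carrier loads it into synaptic vesicles, and a carrier of the plasma membrane recovers the transmitter or its precursor. Most amacrine cells of the mouse retina use GABA or glycine. Starburst amacrine cells release acetylcholine together with GABA and are known for their part in direction selectivity, and a sparse amacrine type makes dopamine and serves adaptation to light. Müller glia span the whole retina and clear transmitters released by neurons.

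The deposited values are on a log2 scale relative to an Input level of each gene, so they give differences between libraries and no level of expression. In 16025 of the 16422 genes exactly 1 Input library stood at 0, which follows from that scale and is not a sign of absent RNA. The depth behind the values is unknown. All 9 genes had passed the authors' minimum of 5 in raw value in both groups, so each was detected in Positive and in Input nuclei. In bulk nuclei, fewer nuclei of a type and less RNA in each nucleus cannot be told apart. Of the Müller glia markers, 12 of 12 had every Positive library above both Input libraries, as did 16.7% of all genes. Their median log2 fold change was 0.45. The marker lists were chosen with earlier results of these data known, so they are no independent check of the capture. The 8 bipolar cell markers had a median of -0.11, and all had a fold change below 0. In 4 of these 8 every Positive library lay below both Input libraries, as in 21.8% of all genes. The 8 rod markers had a median of 0.02. Medians above 0 were also found for markers of pigment epithelium (0.75 over 7 genes), astrocytes (0.65 over 5) and endothelium (0.44 over 7).

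Across the 9 genes the differences between Positive and Input nuclei went in both directions and none passed the test. Log2 fold changes were above 0 in 4 genes and below 0 in 5, and the median was -0.02, against -0.02 over all genes tested. A fold change above 0 was found in 47.0% of all genes. Ranked among the fold changes of all genes, the 9 ran from percentile 9.0 (Th) to percentile 91.0 (Slc32a1). Every Positive library exceeded both Input libraries in 1 gene, Calb2, as it did in 16.7% of all genes, and every one lay below both in 2 genes, Chat and Slc6a9, as in 21.8% of all genes. In the other 6 genes the libraries overlapped. By limma's test with Benjamini-Hochberg adjustment over all genes, 0 of the 9 were called at an adjusted p under 0.05, where 0% of all genes were called higher and 0% lower. At an unadjusted p under 0.05 there was 1 of the 9, Chat, and 14.2% of all genes. Adjusted p in the 9 genes lay between 0.347 and 0.952. The counts depended on single libraries and on the scaling. Without Input 40, 4 genes lay wholly above the remaining Input library, as did 27.6% of all genes, and 4 wholly below, as did 36.1%. The number above both Input libraries was 2 without Positive 12 (22.0% of all genes), 2 after median centring (18.8%) and 0 after quantile normalization (11.6%).

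**Figure D1:**
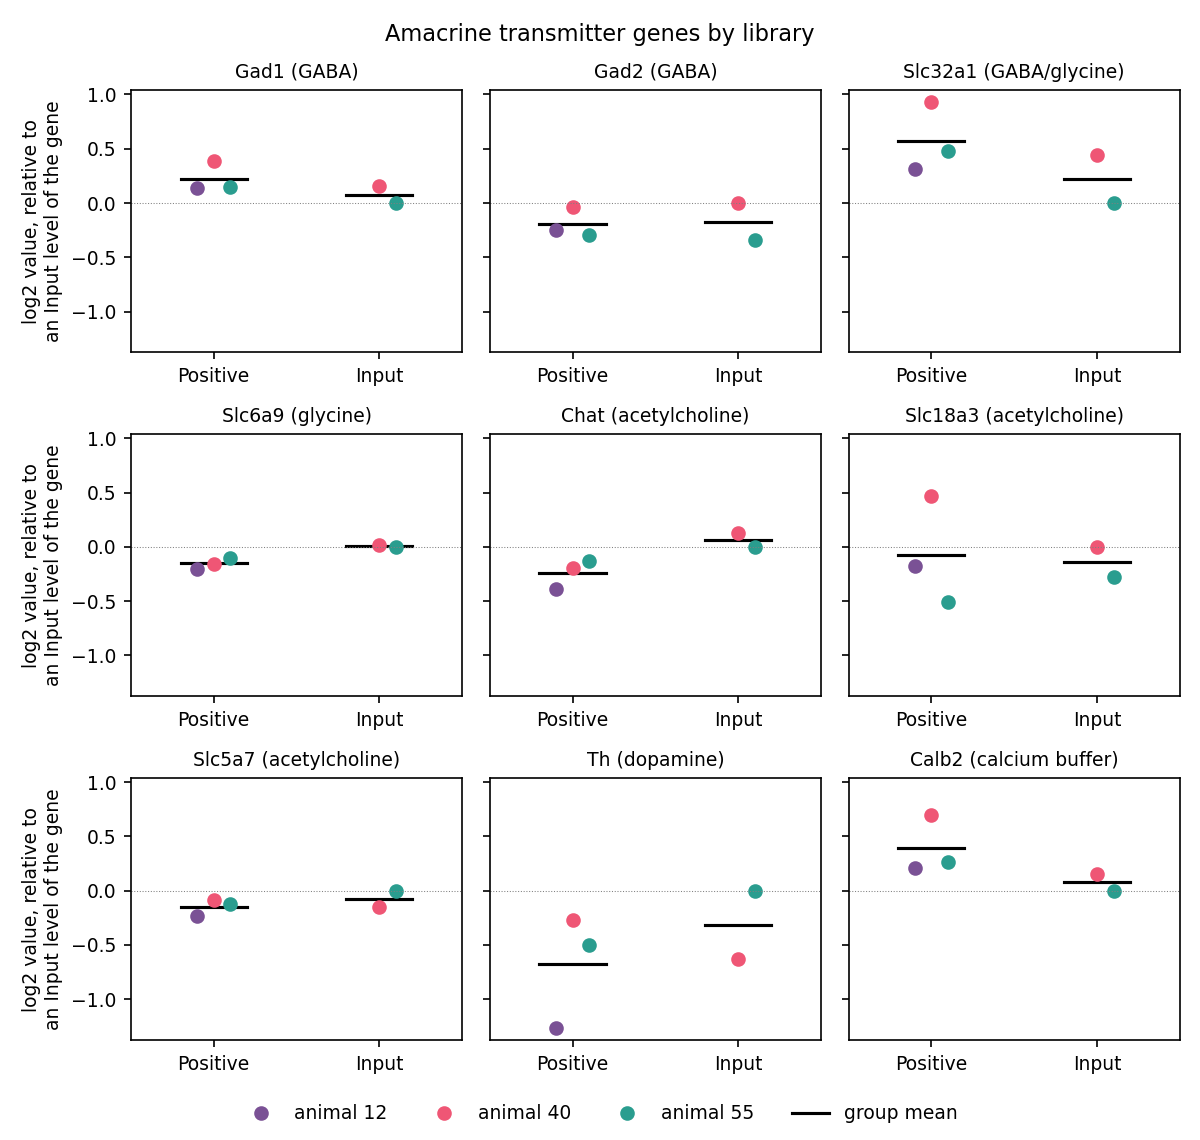
Log2 value of each of the 9 genes in the 3 Positive libraries (left in each panel) and the 2 Input libraries (right), relative to an Input level of that gene; colours mark the animal and bars the group mean. Chat and Slc6a9 have all 3 Positive libraries below both Input libraries, Calb2 has them above, and Th and Slc18a3 have the widest spread.

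GABA is made from glutamate by a pair of decarboxylases. Gad1 encodes GAD67, which supplies GABA throughout the cell, and Gad2 encodes GAD65, which is concentrated at synaptic endings. Gad1 (Entrez gene 14415; mm10 chromosome 2, 70562164 to 70602012, plus strand) had log2 values of 0.14, 0.39 and 0.14 in Positive 12, 40 and 55, against 0.15 and 0.00 in Input 40 and 55. Positive 40 stood above the rest, and the other Positive libraries lay between the Input libraries. On the log2 scale the fold change was 0.15 (SE 0.12; 95% interval -0.15 to 0.45), or 1.11-fold, with an adjusted p of 0.555 in limma's test. Dropping 1 library gave 0.067 (Positive 40), 0.071 (Input 55) or 0.22 (Input 40), and the value turned to -0.0084 under quantile normalization. Gad2 (Entrez gene 14417; chromosome 2, 22622327 to 22693877, plus strand) had -0.24, -0.03 and -0.30 in Positive 12, 40 and 55, against 0.00 and -0.34 in Input 40 and 55. All 3 Positive libraries lay between the Input libraries. This gave a log2 fold change of -0.02 (SE 0.15; 95% interval -0.40 to 0.36), with an adjusted p of 0.952 in limma's test, and its sign was not stable, since it was 0.15 without Input 40 and 0.12 after quantile normalization. Both decarboxylase genes had their highest Positive value and their highest Input value in animal 40.

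The start site of Gad1 lies in a stretch shared with another gene. The deposited interval of 1500002O10Rik, listed by RefSeq as the long noncoding RNA gene Gad1os, runs on the minus strand from 70489940 to 70563357 and covers the first 1194 bases of Gad1. Its log2 fold change was -0.94, on the other side of 0 from that of Gad1. The sources used here do not say whether the authors' counting used strand, so reads from the shared stretch cannot be assigned to one of the genes. The windows around the start sites of the decarboxylase genes are printed here because the genes encode enzymes of the same reaction. The 95% intervals of their fold changes overlapped, and a difference between the genes was not tested. They are RefSeq windows on GRCm38.p6, from 250 bases before the start to 50 after it, at chr2:70561879-70562178 for Gad1 and chr2:22622077-22622376 for Gad2, both on the plus strand. Capitals mark every match, on either strand, to one of 4 motifs: the E-box CANNTG of basic helix-loop-helix factors, the AP-2 motif GCCNNNGGC, the TATA motif TATAAA, and TGACG, the core of the cyclic AMP response element.
Gad1: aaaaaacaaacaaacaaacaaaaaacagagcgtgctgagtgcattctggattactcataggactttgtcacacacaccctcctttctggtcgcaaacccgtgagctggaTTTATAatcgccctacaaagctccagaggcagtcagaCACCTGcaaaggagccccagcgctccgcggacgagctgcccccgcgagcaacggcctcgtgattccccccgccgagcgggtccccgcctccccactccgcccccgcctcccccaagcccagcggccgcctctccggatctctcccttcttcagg
Gad2: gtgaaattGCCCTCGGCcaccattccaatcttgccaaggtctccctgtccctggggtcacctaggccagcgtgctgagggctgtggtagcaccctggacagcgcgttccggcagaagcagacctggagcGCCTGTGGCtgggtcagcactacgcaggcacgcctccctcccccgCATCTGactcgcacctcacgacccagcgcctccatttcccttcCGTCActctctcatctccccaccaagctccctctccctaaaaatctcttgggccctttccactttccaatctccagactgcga
The Gad1 window held 1 E-box, 104 bases before the start, and 1 TATA motif, on the minus strand and 141 bases before it. The Gad2 window held 1 E-box, 2 AP-2 motifs and 1 TGACG. Of all 32851 such windows, 72.3% held an E-box, 16.6% an AP-2 motif, 13.6% a TATA motif and 20.8% a TGACG. A match describes the letters only.

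Slc32a1 encodes the vesicular carrier that loads both GABA and glycine, and horizontal cells express it as well as amacrine cells. Slc32a1 (Entrez gene 22348; chromosome 2, 158610758 to 158615747, plus strand) had log2 values of 0.31, 0.93 and 0.48 in Positive 12, 40 and 55, against 0.44 and 0.00 in Input 40 and 55. Positive 40 and 55 lay above both Input libraries, whereas Positive 12 lay below Input 40. Its log2 fold change was 0.35 (SE 0.24; 95% interval -0.26 to 0.97), or 1.28-fold, with an adjusted p of 0.498 in limma's test. Within animals the difference was nearly the same, 0.49 in animal 40 and 0.48 in animal 55, while Positive 12 lay 0.09 above the mean of the Input libraries. The fold change taken without pairing moved with the scaling and with single libraries. It was 0.03 after quantile normalization, 0.18 without Positive 40, 0.13 without Input 55 and 0.57 without Input 40. Leaving out a library of animal 40 or 55 also breaks the pair of that animal. With animal as a fixed block, where animal 12 carries no contrast, the fold change was 0.48 (SE 0.06), with an adjusted p of 0.287 in limma. Horizontal cell markers, of which 5 of 7 had a fold change above 0, had medians of -0.05, 0.04 and 0.11 in Positive 12, 40 and 55, against -0.0041 and 0.00 in Input 40 and 55, and their part in the Slc32a1 difference was not tested.

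Glycinergic amacrine cells take up glycine through GLYT1, the product of Slc6a9, which in the brain is mainly a glial carrier. Slc6a9 (Entrez gene 14664; chromosome 4, 117835258 to 117869305, plus strand) had log2 values of -0.20, -0.15 and -0.10 in Positive 12, 40 and 55, against 0.02 and 0.00 in Input 40 and 55. All 3 Positive libraries lay below both Input libraries, and the libraries of each fraction lay close together. The log2 fold change was -0.16 (SE 0.07; 95% interval -0.35 to 0.03), or 0.894-fold, with an adjusted p of 0.382 in limma's test. The spread within groups was at percentile 5.61 of all genes, the smallest of the 9. The difference was between -0.19 and -0.14 in the 12 alternative settings. Since the libraries lay apart, leaving out a library could not turn its sign. The deposited interval of Slc6a9 shares its last 46 bases with that of Ccdc24 on the minus strand.

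Other genes of glycine transport and metabolism went in both directions. Of 7 genes, 3 had a fold change above 0 and 4 below, and 0 were called. Slc6a5, which encodes the neuronal glycine carrier GLYT2, had -0.80, -0.53 and -0.41 in Positive 12, 40 and 55, against 0.00 and 0.08 in Input 40 and 55. All 3 Positive libraries again lay below both Input libraries, at -0.62 on the log2 fold change scale (SE 0.14), with an adjusted p of 0.331 in limma. Gldc, the decarboxylase of the glycine cleavage system, had every Positive library above both Input libraries, at 0.32 on the same scale (SE 0.10), with an adjusted p of 0.333 in limma. Shmt2, the mitochondrial enzyme that interconverts serine and glycine, had -0.10, with every Positive library below. The other GABA genes had a median of 0.03, with 5 of 8 above 0. Abat, the transaminase that breaks down GABA, had 0.14 with every Positive library above both Input libraries. Slc6a11, the GABA carrier GAT3, had 0.27. Slc6a13, the carrier GAT2, had the largest value of the list at 1.13, but its Positive libraries ranged from -1.13 to 1.12 and its Input libraries from -1.75 to 0.00 (SE 0.89).

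Acetylcholine is made by choline acetyltransferase, the product of Chat, from choline brought in by the high-affinity carrier encoded by Slc5a7, and is loaded into vesicles by the carrier encoded by Slc18a3. Chat (Entrez gene 12647; chromosome 14, 32408203 to 32465909, minus strand) had log2 values of -0.39, -0.19 and -0.13 in Positive 12, 40 and 55, against 0.12 and 0.00 in Input 40 and 55. All 3 Positive libraries lay below both Input libraries, Positive 12 lowest. On the log2 scale the fold change was -0.30 (SE 0.11; 95% interval -0.59 to -0.01), or 0.812-fold, with an adjusted p of 0.347 in limma's test, the lowest of the 9 genes. Within animals the difference was -0.32 in animal 40 and -0.13 in animal 55. The fold change was between -0.36 and -0.23 in the 12 alternative settings. Its lowest adjusted p there was 0.159, in limma with animal as a random block. Since the libraries lay apart, leaving out a library could not turn the sign.

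Slc18a3 lies inside Chat and is read from the same strand, an arrangement known as the cholinergic gene locus. Slc18a3 (Entrez gene 20508; chromosome 14, 32462437 to 32464850, minus strand) had log2 values of -0.18, 0.47 and -0.51 in Positive 12, 40 and 55, against 0.00 and -0.27 in Input 40 and 55. Positive 40 was the highest library and Positive 55 the lowest, with both Input libraries between them. This gave a log2 fold change of 0.06 (SE 0.31; 95% interval -0.75 to 0.87), with an adjusted p of 0.933 in limma's test. Its sign turned to -0.21 without Positive 40 and to -0.07 without Input 55. The spread within groups was at percentile 88.3 of all genes, and that of Chat at percentile 46.6. Within animal 40 the difference was 0.47 for Slc18a3 and -0.32 for Chat, and within animal 55 it was -0.23 for Slc18a3 and -0.13 for Chat.

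The Slc18a3 interval of 2414 bases is 4.18% of the 57707 bases of Chat. In GENCODE M21 on GRCm38, 4 of 8 Chat transcripts hold it whole in their first intron, the other 4 start downstream of it, and 0 of the 8 have an exon base in it. Since the strand is the same, nuclear RNA of Chat that still holds this intron has the sequence of Slc18a3 too. The sources used here do not say how the authors' counting treated such reads, so the values of Slc18a3 are uncertain for this reason. The start windows of both genes are printed because they lie 1059 bases apart on one strand. The 95% interval of Slc18a3 held the whole interval of Chat, and a difference between the genes was not tested. They are RefSeq windows on GRCm38.p6, minus strand, at chr14:32465860-32466159 for Chat and chr14:32464801-32465100 for Slc18a3, with capitals for the same 4 motifs.
Chat: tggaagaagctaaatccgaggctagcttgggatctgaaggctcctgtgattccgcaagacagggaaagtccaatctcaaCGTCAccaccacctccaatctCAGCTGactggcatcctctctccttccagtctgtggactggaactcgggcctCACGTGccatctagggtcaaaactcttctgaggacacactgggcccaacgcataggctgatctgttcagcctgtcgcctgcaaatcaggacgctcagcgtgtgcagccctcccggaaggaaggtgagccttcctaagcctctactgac
Slc18a3: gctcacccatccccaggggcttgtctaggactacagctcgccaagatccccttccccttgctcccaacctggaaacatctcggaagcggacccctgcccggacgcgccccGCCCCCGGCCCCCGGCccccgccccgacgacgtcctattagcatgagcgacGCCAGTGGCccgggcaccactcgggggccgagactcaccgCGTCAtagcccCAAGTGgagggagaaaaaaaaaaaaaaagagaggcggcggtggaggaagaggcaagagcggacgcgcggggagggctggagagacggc
The Chat window held 2 E-boxes, 150 and 98 bases before the start, and 1 TGACG, 171 bases before it. The Slc18a3 window held 1 E-box, 38 bases before the start, 1 TGACG, and 3 AP-2 motifs, of which 2 overlap, at 140 and 133 bases before the start. The GC content was 55.7% for Chat and 67.0% for Slc18a3, against a median of 52.7% over all windows.

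Slc5a7 (Entrez gene 63993; chromosome 17, 54273590 to 54299034, minus strand) had log2 values of -0.24, -0.09 and -0.13 in Positive 12, 40 and 55, against -0.15 and 0.00 in Input 40 and 55. Positive 12 lay below both Input libraries, and Positive 40 and 55 lay between them. Its log2 fold change was -0.08 (SE 0.09; 95% interval -0.32 to 0.17), with an adjusted p of 0.704 in limma's test. Its sign turned to 0.00035 without Input 55 and to 0.061 after quantile normalization, and the value was -0.15 without Input 40 and -0.03 without Positive 12. Among 8 other genes of acetylcholine metabolism, 4 had a fold change above 0 and 4 below, with a median of 0.01 and 0 called. Ache, the esterase that ends cholinergic transmission, had -0.52, -0.40 and -0.17 in Positive 12, 40 and 55, against 0.00 and 0.07 in Input 40 and 55. Its Positive libraries lay below both Input libraries like those of Chat, at a log2 fold change of -0.40 (SE 0.12), with an adjusted p of 0.331 in limma. Bche, the related butyrylcholinesterase gene, had 0.26 (SE 0.15) with overlapping libraries. Megf10, which encodes a receptor for the mosaic spacing of starburst and horizontal cells, had 0.38 (SE 0.17), with every Positive library above both Input libraries. It was the only 1 of 9 structural and calcium-binding markers of amacrine cells with libraries apart. Megf11, of the same list, had -0.06 (SE 0.08) with overlapping libraries.

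Dopamine synthesis begins with tyrosine hydroxylase, the product of Th. Th (Entrez gene 21823; chromosome 7, 142892776 to 142899966, minus strand) had log2 values of -1.27, -0.27 and -0.50 in Positive 12, 40 and 55, against -0.63 and 0.00 in Input 40 and 55. Positive 12 was far below the rest and the other libraries overlapped. The log2 fold change was -0.36 (SE 0.37; 95% interval -1.32 to 0.59), the lowest of the 9 genes and the one with the widest interval, with an adjusted p of 0.641 in limma's test. The animals differed in direction, with 0.36 in animal 40 and -0.50 in animal 55. Without Positive 12 the fold change was -0.07, without Input 55 it was -0.05 and without Input 40 it was -0.68. The spread within groups was at percentile 91.1 of all genes.

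Most other dopamine genes lay on the other side of 0 from Th. Of 9 measured genes 8 had a fold change above 0, against 47.0% of all genes, and the median was 0.24. All Positive values exceeded the Input values in 4, as in 16.7% of all genes, and 0 were called. Gch1, whose enzyme begins the synthesis of the tetrahydrobiopterin cofactor of tyrosine hydroxylase, had 1.06, 1.24 and 1.05 in Positive 12, 40 and 55, against -0.86 and 0.00 in Input 40 and 55. The groups were far apart, by 1.54 on the log2 scale (SE 0.27), with an adjusted p of 0.329 in limma. Ddc, the decarboxylase that turns L-DOPA into dopamine, had 1.11, 0.00 and 0.59 in Positive 12, 40 and 55, against -0.53 and 0.00 in Input 40 and 55, a log2 fold change of 0.83 (SE 0.37). Slc18a2, the vesicular monoamine carrier gene that marks cells able to store dopamine, had 0.02 (SE 0.11) with overlapping libraries. In the same libraries the pigment epithelium markers had medians of 1.07, 0.80 and 0.47 in Positive 12, 40 and 55, against -0.34 and 0.00 in Input 40 and 55, and their part in the values of Gch1 and Ddc was not tested.

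**Figure D2:**
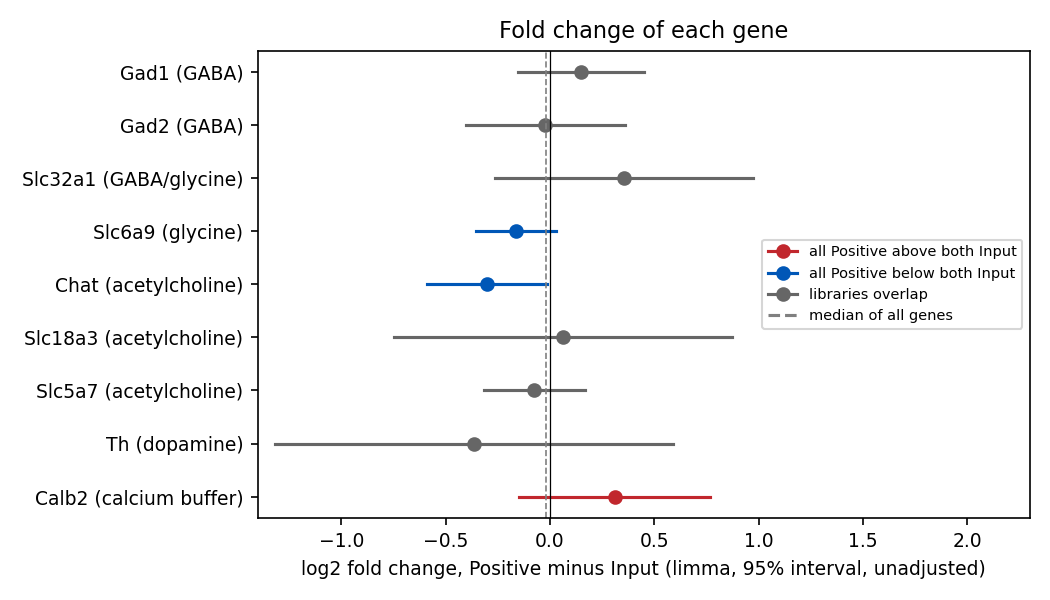
Log2 fold change of each gene (point) with its 95% interval (line) from limma, Positive minus Input, against the median of all genes (dashed line, -0.02). Of the 9 unadjusted intervals, from the fit without pairing by animal, 8 include 0, and that of Chat ends at -0.01.

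Calb2 encodes calretinin, a calcium buffer of many amacrine cells, among them the AII type, and of some ganglion cells. Calb2 (Entrez gene 12308; chromosome 8, 110142538 to 110168206, minus strand) had log2 values of 0.21, 0.69 and 0.26 in Positive 12, 40 and 55, against 0.15 and 0.00 in Input 40 and 55. Each Positive library was higher than either Input library, but Positive 12 exceeded Input 40 only narrowly. On the log2 scale the fold change was 0.31 (SE 0.18; 95% interval -0.15 to 0.77), or 1.24-fold, with an adjusted p of 0.438 in limma's test. It was 0.16 without Positive 40 and 0.12 after quantile normalization, where the libraries overlapped. Of the ganglion cell markers 10 of 12 had a fold change above 0, with medians of 0.13, 0.37 and 0.23 in Positive 12, 40 and 55, against 0.03 and 0.00 in Input 40 and 55. Their part in the Calb2 difference was not tested. The levels of those markers in the libraries cannot be given on this scale.

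By transmitter, the mean log2 fold change was 0.16 for the 3 GABA genes and 0.10 for the glycine pair of Slc6a9 and Slc32a1. It was -0.10 for the 3 acetylcholine genes and -0.36 for Th. Single libraries moved these means. That of the GABA genes was 0.0049 without Input 55, 0.048 without Positive 40 and 0.32 without Input 40. That of the glycine pair was -0.019 without Input 55, 0.0081 without Positive 40, 0.17 without Positive 12 and 0.21 without Input 40. The acetylcholine mean was -0.21 without Positive 40, and dropping Positive 12, Positive 55 or Input 40 gave -0.047, -0.053 or -0.063, in that order. The mean over the GABA genes was 0.07, 0.43 and 0.11 in Positive 12, 40 and 55, against 0.20 and -0.11 in Input 40 and 55. That over the acetylcholine genes was -0.27, 0.06 and -0.26 in Positive 12, 40 and 55, against -0.01 and -0.09 in Input 40 and 55. In each of the 4 transmitter groups the Positive and Input libraries overlapped. Fold changes ran from -0.02 to 0.35 in the GABA group, from -0.16 to 0.35 in the glycine pair and from -0.30 to 0.06 in the acetylcholine group. The glycine mean therefore joins genes of opposite sign, of which Slc32a1 is also counted with GABA. In order of fold change the genes ran Slc32a1, Calb2, Gad1, Slc18a3, Gad2, Slc5a7, Slc6a9, Chat and Th, and the 95% intervals of neighbours in this order overlapped throughout.

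The sets of values also differed by animal. Positive 40 was the highest Positive library in 7 of the 9 genes, against 32.6% of all genes, and Positive 12 was the lowest in 7, against 35.8%. Input 40 lay above Input 55 in 7 of the 9, against 43.2% of all genes. Within animals 40 and 55 the differences had the same sign in Gad1, Slc32a1 and Calb2, which were higher in Positive in both, and in Chat and Slc6a9, which were lower in both. In the other 4 genes, Gad2, Slc18a3, Slc5a7 and Th, the animals had opposite signs, as did 29.9% of all genes.

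**Figure D3:**
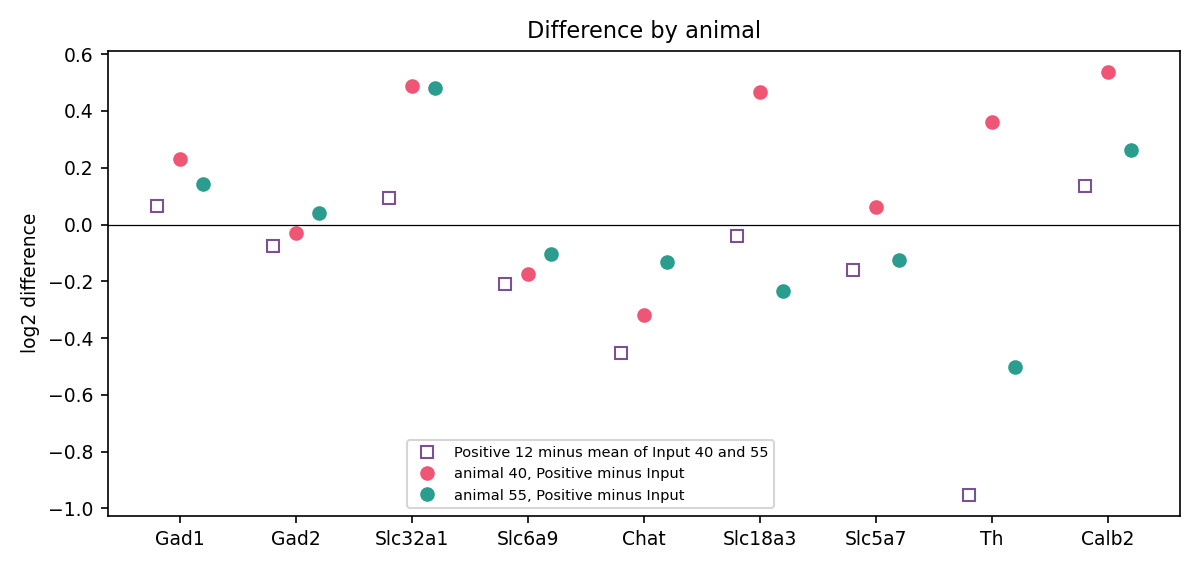
Log2 difference of Positive 12 from the mean of Input 40 and 55 (open squares) and of Positive from Input within animals 40 and 55 (filled circles), for each gene. Chat and Slc6a9 lie below 0 in all 3 comparisons, Gad1, Slc32a1 and Calb2 above 0 in all 3, and Th runs from -0.95 to 0.36.

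The likeness of the genes to each other was described by the root mean square difference of their 5 values, each gene centred on its own mean. By this measure Gad1 and Gad2 were each other's nearest member, at 0.10, and so were Slc32a1 and Calb2, at 0.10. Chat lay nearest to Slc6a9, at 0.09, and not to Slc18a3, whose nearest member was Calb2 at 0.22. Th had no near member, the closest being Slc5a7 at 0.35. Other genes also lay as near. Of 15662 genes, 13.1% were at least as close to Gad1 as Gad2 was, and 3.67% to Gad2 as Gad1 was. For Slc32a1 with Calb2 the share was 0.30%, and for Calb2 with Slc32a1 it was 1.93%. The measure is not scaled by spread, which was at percentiles 50.6, 65.5, 82.7 and 73.7 for Gad1, Gad2, Slc32a1 and Calb2. The shares therefore cannot be compared between the pairs. The 3 genes most like Slc32a1 were Pcsk1, Magee1 and Gja10, at 0.04 to 0.06, and the 3 most like Calb2 were Dirc2, Spon1 and Nefm, all at 0.03. Gja10 encodes a connexin of horizontal cells and Nefm a neurofilament subunit of ganglion cells. The 3 most like Chat were Agrp, Ddx27 and A630007B06Rik, all at 0.03, and the 3 most like Slc6a9 were Dapk1, Dock11 and Fam120b, all at 0.01. The values share 5 libraries and a baseline, and no test was made.

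**Figure D4:**
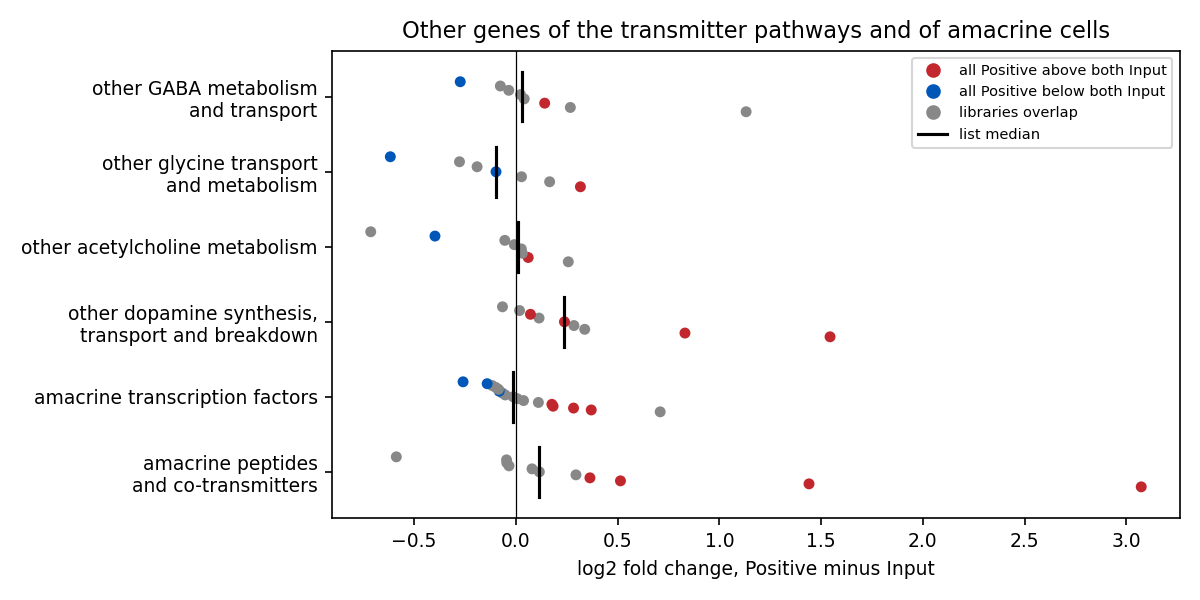
Log2 fold change, Positive minus Input, of the other genes of each transmitter pathway and of 2 lists of amacrine genes (points; black bars are list medians). The dopamine list has its median at 0.24, against -0.10 for the glycine list, and the point at 3.07 is Gal, a neuropeptide gene that had passed the authors' minimum in 1 condition only.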

How the data were processed

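Per the file headers, the authors deposited log2 values normalized for 5 libraries with RefSeq gene models, and dropped rows unless all libraries of 1 or both of the 2 conditions reached a raw value of 5. The build was mm10 and DESeq was run, per the submitters' processing notes. Not given in the sources used here are the DESeq version, the aligner, the counter and the use of strand. Each gene's log2 values are set against its own Input level, so that level drops out of differences. They hold no counts, so depth is unknown and no counting interval could be given.

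From 16423 rows, 1 row per symbol (the highest mean) left 16422 genes, of which 15671 had passed in both conditions. Limma 3.58.1 in R 4.3.3 compared Positive with Input without trend or further scaling, with 3 residual degrees of freedom and two-sided p-values adjusted by Benjamini-Hochberg over all genes (threshold 0.05). Intervals are 95% and unadjusted. An exact permutation of 3 against 2 libraries has 0.1 as its smallest p and was not used. The fit was also run on simulated data with independent libraries, which hold no pairing by animal and so cannot check that part of the design. Replicates are separate animals, and the labels put Positive and Input 40, and Positive and Input 55, in the same animals. The deviations of these pairs from the group means correlated across genes at r = 0.174 and r = 0.195. The animal as a fixed and as a random block, other scalings and variance models, genes passed in both conditions only, and leaving out each library were tried as alternatives. The members and gene lists were chosen with earlier results of these data known. Genes named beside the 9 are pathway genes, the 2 highest and 2 lowest of a list, the 3 nearest patterns among 15662 genes passed in both conditions, and overlapping genes. Nefm and Gja10 come from the nearest patterns, and Megf11 was named beside Megf10 after its value was seen. Coordinates are those of the deposited table, and the intervals of all 9 genes overlap the same Entrez genes in RefSeq GRCm38.p6. Start windows were found in RefSeq for 8 of the 9.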

Additional observations from a re-analysis of the deposited data

How the results depend on the processing

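None of the 9 genes passed limma's threshold under any of the 12 alternatives, where their lowest adjusted p was 0.159 (Chat with the random replicate block, over a range of 0.159 to 0.906 in its alternatives). Over all genes limma called 4 higher and 7 lower when animal was a random replicate block (consensus correlation 0.514) and 0 when it was a fixed replicate block, a fit in which animal 12 carries no contrast; the cause was not tested. Slc32a1, Slc6a9, Chat, Th and Calb2 kept their sign in all 12, but not every alternative could turn it. The mean-variance trend, the robust prior and the limit to genes passed in both conditions leave the fold change as it is. The fixed replicate block gives the same fold change as leaving out Positive 12. In Chat, Slc6a9 and Calb2, whose libraries lay apart, leaving out a library could not turn the sign. The sign turned for Gad1 after quantile normalization (-0.0084). It turned for Gad2 after quantile normalization (0.12), without Positive 55 (0.03) and without Input 40 (0.15). It also turned with the fixed replicate block and without Positive 12, which give the same fold change (0.0049). It turned for Slc18a3 without Positive 40 (-0.21) and without Input 55 (-0.07), and for Slc5a7 after quantile normalization (0.061) and without Input 55 (0.00035). With a library left out, the range was -0.19 to 0.15 for Gad2, -0.21 to 0.28 for Slc18a3 and -0.15 to 0.00035 for Slc5a7. With 1 Input library the lone sample is assumed to vary like the other group.

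The number of the 9 genes with every Positive library above both Input libraries was 2 after median centring (18.8% of all genes) and 0 after quantile normalization (11.6%). With a Positive library left out it was 1 or 2, against 20.6% to 26.3% of all genes. Above the remaining Input library lay 4 without Input 40 (27.6%) and 1 without Input 55 (25.7%). These checks were chosen after the data were seen. The number below was 2 after median centring (19.4% of all genes) and 2 after quantile normalization (15.2%). With a Positive library left out it was 2, against 26.0% to 30.8% of all genes. Below the remaining Input library lay 4 without Input 40 (36.1%) and 3 without Input 55 (28.6%). Chat and Slc6a9 were below in each of these settings. Since both lay below with all libraries in use, leaving out a library could not change this, and only the scalings could. Quantile normalization forces one distribution on libraries whose Input values are mostly at or near 0 by construction. Over the 12 alternatives the mean fold change ran from 0.0049 to 0.32 for the GABA genes and from -0.21 to -0.04 for the acetylcholine genes. That of the glycine pair ran from -0.060 to 0.21, and its sign turned after quantile normalization (-0.060) and without Input 55 (-0.019). Unknown depth and 2 Input libraries limit the precision.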

Other observations

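Transcription factors of amacrine cells gave no common direction. Of 17 measured, 8 had a log2 fold change above 0 and 9 below, with a median of -0.01 and 0 called by limma over all genes. Neurod6, a factor of an amacrine type that uses neither GABA nor glycine, had 0.45, 0.51 and 0.22 in Positive 12, 40 and 55, against 0.00 and 0.04 in Input 40 and 55 (log2 fold change 0.37, SE 0.11; adjusted p = 0.331 in limma). Prox1, a factor of AII amacrine, bipolar and horizontal cells, had -0.31, -0.26 and -0.15 in Positive 12, 40 and 55, against 0.00 and 0.04 in Input 40 and 55 (log2 fold change -0.26, SE 0.08; adjusted p = 0.333 in limma). Tfap2b, an AP-2 factor of amacrine and horizontal cells, had -0.14 with every Positive library below both Input libraries. Ptf1a, the factor that sets amacrine and horizontal fate, had the highest value of the list at 0.71 with overlapping libraries (SE 0.54), and had passed the authors' minimum in 1 condition only.

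Neuropeptide and co-transmitter genes of amacrine cells ranged widely. Of 11, 7 had a log2 fold change above 0, against 47.0% of all genes. In 4, Gal, Penk, Tac1 and Npy, all Positive values exceeded the Input values, as in 16.7% of all genes. The other genes of the list had overlapping libraries. Tac1 and Npy were named after their values were seen. Gal, the galanin gene, had 3.55, 3.13 and 2.50 in Positive 12, 40 and 55, against -0.03 and 0.00 in Input 40 and 55, a difference of 3.07 on the log2 scale (SE 0.32), with an adjusted p of 0.249 in limma. It had passed the authors' minimum in 1 condition only, so this value rests on low raw values in the other. Penk, the proenkephalin gene, had 2.26, 0.78 and 1.87 in Positive 12, 40 and 55, against -0.38 and 0.77 in Input 40 and 55, so that Positive 40 barely exceeded Input 55. Nos1, which encodes the neuronal nitric oxide synthase of a GABAergic amacrine type, had the lowest value of the list at -0.59 (SE 0.31) with overlapping libraries. The list of 9 structural and calcium-binding markers had a median of 0.09. Markers of cones had a median of -0.05, of astrocytes 0.65 and of microglia 0.28, and the part of these cells in the values above was not tested.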
